A study of Drosophila melanogaster with 39 samples.

Results

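The genes described here are 10 components of epidermal growth factor receptor (EGFR) signalling in Drosophila melanogaster, taken from a series that compared imaginal discs of larvae on spotted DNA arrays. They were chosen by name and not by a cut on their values, though with earlier results of these data known. Every probe of each gene was used. The 10 genes are measured by 14 probes, of 11436 named genes on the array and 16359 probes other than controls. They are the ligand-processing genes rho (rhomboid) and S (Star), the ligand genes spi (spitz) and vn (vein), the receptor gene Egfr, the downstream GTPase gene Ras85D, the effector gene pnt (pointed), and the inhibitor genes aos (argos), sty (sprouty) and kek1 (kekkon 1).

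EGFR signalling starts when a ligand binds the receptor tyrosine kinase Egfr and activates Ras85D and, through it, the MAP kinase cascade, which acts on the transcription factor Pnt. The Spi precursor is inactive until Star carries it out of the endoplasmic reticulum and the protease Rhomboid cleaves it, so in many tissues the cells that express rho are the source of the signal, whereas Vn is secreted in active form. The pathway induces its own inhibitors, among them Argos, which binds Spi, Sprouty, which acts inside the cell, and Kekkon 1, which binds the receptor. In leg discs EGFR signalling patterns the distal leg and the precursors of sense organs, and in wing discs it is needed for the notum and the wing veins.

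Each array compared 2 RNA samples, and 39 arrays fall into 9 comparisons. A wing disc was set against a leg disc of the same wild-type (Oregon R) male on 9 arrays, 3 for each leg segment. Leg discs of the first segment that express Wingless (Wg) throughout were set against a leg disc reference on 6 arrays. This treatment switches some leg cells to wing fate (transdetermination). Wild-type leg discs of the first segment were set against the reference on 4 arrays, and regenerating leg discs on 4. Transdetermining (TD) cells were set against the other dorsal cells of the same kind of disc, D(wg), on 3 arrays, against its ventral cells, V(wg), on 5, and on 2 against D(wt) cells, the dorsal cells of discs without Wg induction. The remaining arrays compared D(wg) with V(wg) cells, 3 arrays, and D(wt) with V(wt) cells, 3 arrays.

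The Wg-expressing larvae carried a heat-shock flip-recombinase (y,w,hs-flp), a GFP reporter under the boundary enhancer of vg (vgBE-GAL4/UASGFP) and an Actinc5, FRT y+, FRT, wg+ cassette that expresses wg once recombined. They were heat-shocked at 60 h and 72 h after egg laying, the discs were taken 3 days later, Wg was present in over 90% of the cells, and metamorphosis came a day late. TD cells were cut out by their GFP, and the rest of the disc was divided into a dorsal and a ventral piece, with pieces of 4 to 8 discs pooled. D(wt) and V(wt) cells came from wild-type male discs, and the wild-type larvae were staged late in the 3rd instar by gut contents. The regenerating discs were 3/4 fragments of leg discs of the second segment kept for 3 to 5 days in the abdomens of adult females, which adds a host and a culture time that no other group had. The reference was a pool of amplified RNA from leg discs of all 3 segments, male and female, and all RNA went through 2 linear rounds of amplification. No heat shock is recorded for wild-type samples, so Wg, heat shock and stock cannot be told apart in any comparison with wild-type RNA. Against the mixed reference, sex and leg segment cannot be told apart from the named difference either. The series describes the arrays of a comparison as independent replicates. The p-values measure only the spread between arrays, pooled for each probe over all comparisons, and not that of a comparison's own arrays alone. The discs are bulk samples, in which fewer cells of a type and less RNA per cell cannot be told apart.

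Every value is read as a log2 ratio with the first-named sample on top, so that 1 is a 2-fold higher and -1 a 2-fold lower level. The log base is not stated in the sources and was assumed. An array held values for 2969 to 14648 probes, and spot intensities were not used, so the signal over background is unknown. The wing and leg discs carried their labelled identity: all 3 wing genes tested (vg, ap, Dr) were higher and all 3 leg genes tested (Dll, Lim1, lbl) lower in wing than in leg discs, against 4.53% of all probes. Of dorsal leg genes (Doc1, Doc2, Doc3, dpp) 2 of 4 tested were higher in D(wt) than in V(wt) cells, against 0.694%. In D(wg) over V(wg) cells 0 of 3 passed by limma's adjusted p, against 0.266%, with values from -0.66 to 0.31. Of 3 ventral leg genes (H15, mid, wg) 1 was lower in each. The GFP control spots were above 0 on all 8 arrays of TD over D(wg) or V(wg) cells, with medians of 0.69 to 4.69. On the 2 arrays labelled TD over D(wt), however, they were below 0, with medians of -1.96 and -5.04. On those arrays vg, the wing gene whose enhancer marks TD cells, was at -1.73 and -1.77, and wg was at -5.63 and -3.74. Their values correlated at -0.47 to -0.30 over all probes with those of the Wg-expressing discs over the reference, and at 0.74 with each other. These arrays go against their label, so their ratios are given as labelled and with the sign turned, and no direction is drawn from them. The gene w, which marks many transgenes, was at 4.43 to 6.75 in Wg-expressing discs over the reference. It was also high on replicate 4 of the wild-type leg discs (4.94) and on replicate 4 of the regenerating discs (6.57), so calls in those groups are also given without these arrays.

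**Figure D1:**
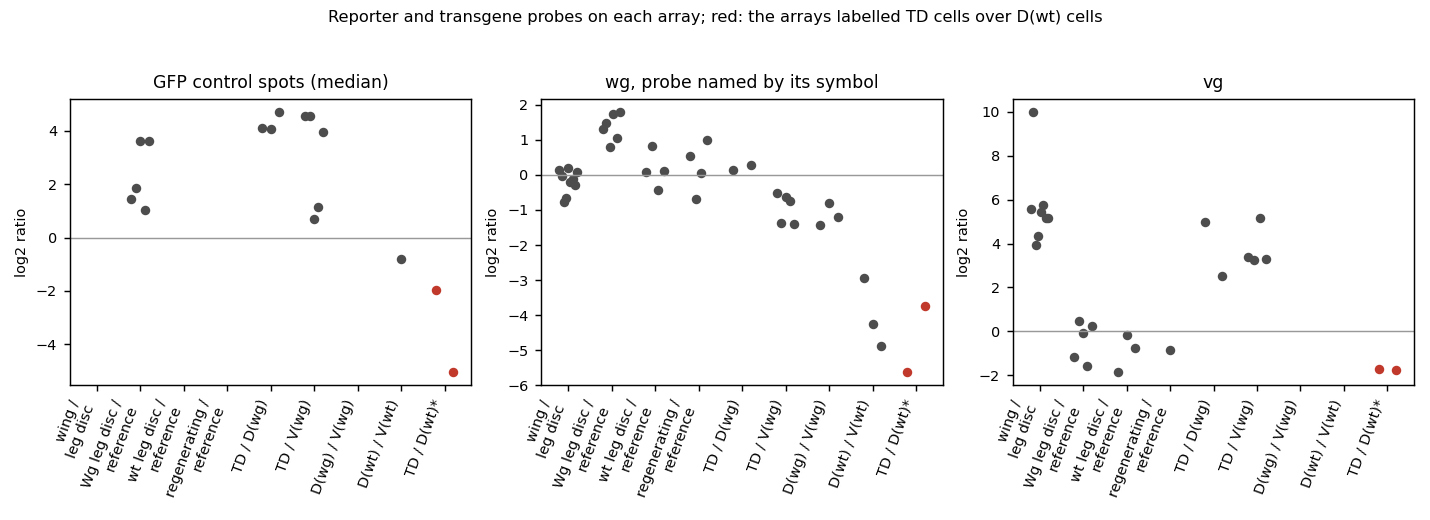
Log2 ratio (first-named over second-named sample) of the GFP control spots (median of those of the 72 spots with a value), of wg (the probe named by its symbol) and of vg on each array, 1 point per array with a value, arrays grouped by comparison. The arrays labelled TD over D(wt), in red, lie below 0 in every panel, whereas the arrays of TD over D(wg) and TD over V(wg) lie above 0 for GFP and vg.

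Between 3 and 10 of the genes were tested in a comparison, and at most 3 passed in any. The share of all tested probes that passed ran from 0.115% to 40.6%. The level of rho in wing discs was 0.27 times that in leg discs, and rho was also lower in TD than in V(wg) cells and in Wg-expressing discs than in the reference. aos was higher in Wg-expressing discs than in the reference, Egfr was lower in Wg-expressing and in wild-type leg discs than in the reference, and spi was higher in TD than in V(wg) cells. These Egfr and spi calls, and that of rho against the reference, were lost when certain single arrays were left out. S, sty and kek1 passed no test.

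The tests were limma's moderated tests with Benjamini-Hochberg adjustment over all probes tested in a comparison, passed at an adjusted p under 0.05. In wing over leg discs 2 of 8 tested members passed, rho and pnt, both lower, where 4.53% of all tested probes passed. In Wg-expressing leg discs over the reference 3 of 10 passed, rho and Egfr lower and aos higher, against 21.1% of all probes. In wild-type leg discs over the reference 3 of 9 passed, vn, Egfr and pnt, all lower, against 17.8%. In regenerating discs over the reference 2 of 3 passed, spi and Ras85D, both lower, against 40.6%, with aos as the third gene tested. The shares against the reference rest on 3 to 10 genes and say nothing of the members as a group. The median ratio of the tested members lay between -0.15 and 0.05 in the comparisons on the same array other than those of regenerating discs, where it was -0.76 over 3 genes, and of the arrays labelled TD over D(wt). There the median of all genes tested lay between -0.08 and 0.05.

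Among cells of Wg-expressing discs, 2 of 9 tested members passed in TD over V(wg) cells, rho lower and spi higher, against 13.4% of all probes. In TD over D(wg) cells 0 of 9 passed by limma's adjusted p, against 17.9% of all probes. An unadjusted p under 0.05 was found for 3 of the 9 and for 3029 of all 9187 probes tested. In D(wg) over V(wg) cells 0 of 10 passed by the same test, against 0.266%. Unadjusted, 1 of the 10 and 1909 of all 9398 probes had a p under 0.05. The share of 0.266% depended on 1 array, since 25 of 9398 probes passed with all 3 arrays and 322 of 8002 without replicate 3. In D(wt) over V(wt) cells 0 of 8 passed, against 0.694%, although the fit to those arrays alone passed 1. Unadjusted, 0 of the 8 and 219 of all 7207 probes had a p under 0.05. On the arrays labelled TD over D(wt) 3 of 9 passed as labelled, rho, aos and pnt, against 9.41% of all probes, and only pnt with the sign turned.

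Differences between comparisons were tested in the same model. Of Wg-expressing minus wild-type leg discs, 0 of 9 members passed by limma's adjusted p, against 6.63% of all probes. Of the 9, 1, pnt, had an unadjusted p under 0.05, as did 1756 of all 7797 probes tested. Of regenerating minus wild-type leg discs, 1 of 3 passed, Ras85D, against 19.7%, and of Wg-expressing minus regenerating discs also 1 of 3, Ras85D, against 27%. Of the dorsal over ventral ratio in Wg-expressing minus that in wild-type discs, 0 of 8 passed, against 0.115%. Of the 8, 1, aos, had an unadjusted p under 0.05, as did 705 of all 6929 probes tested. Wg-expressing leg discs lay on different series of slides from both wild-type and regenerating discs. Wg and slide series therefore cannot be told apart in the difference from wild-type discs. In Wg-expressing minus regenerating discs Wg, regeneration and slide series cannot be told apart. All 3 differences that go through the reference share it.

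**Figure D2:**
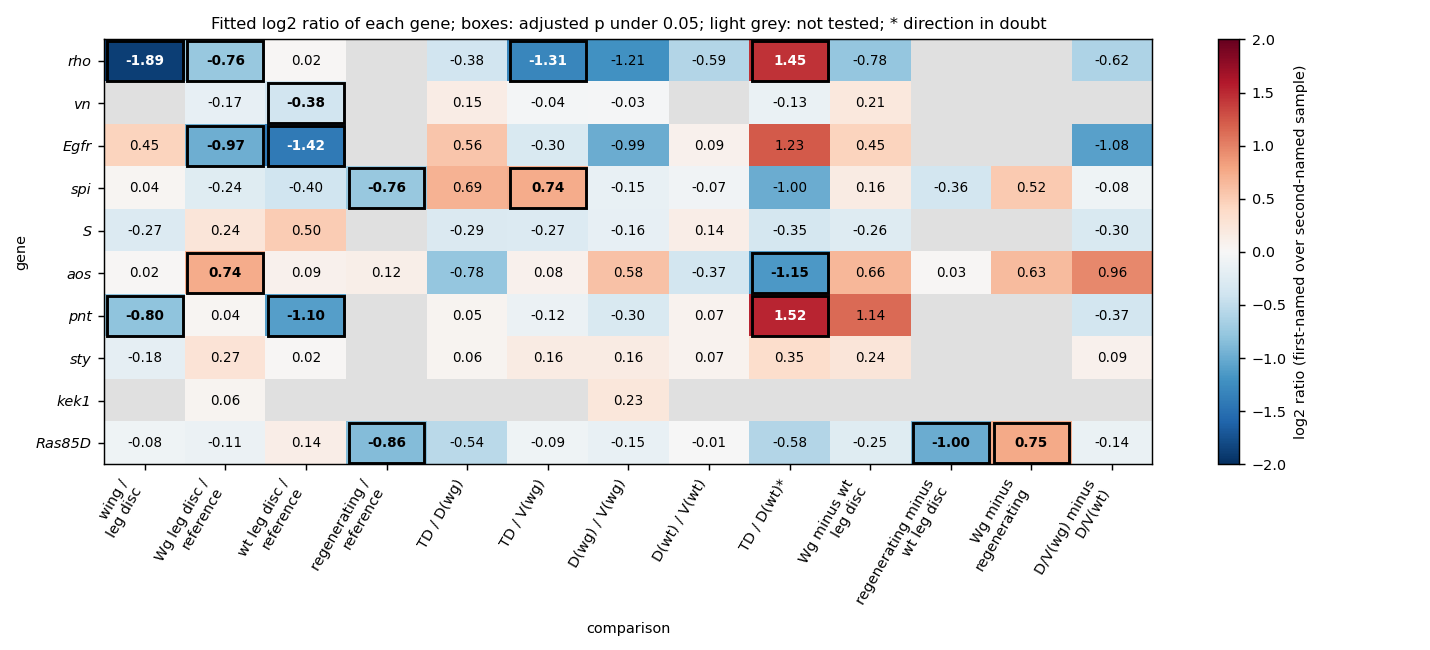
Fitted log2 ratio (first-named over second-named sample) of the chosen probe of each gene in the 9 comparisons on the same array and the 4 differences between comparisons, red for higher and blue for lower, with boxes where the adjusted p was under 0.05 and light grey where too few arrays had a value. The deepest cell is rho in wing over leg discs at -1.89, and the boxes of any 1 gene fill at most 4 of the 9 comparisons on the same array.

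rho encodes the intramembrane protease that releases active Spi. On the wing over leg arrays it ran from -2.38 to -1.52 with a median of -1.82, so that every one of the 9 arrays was far below 0. The fitted ratio was -1.89 ± 0.20 (SE, 95% interval -2.30 to -1.48; limma adjusted p = 5.82e-08). It differed little with the leg segment: the means were -1.78 ± 0.36 for the first, -1.72 ± 0.10 for the second and -2.15 ± 0.21 for the third leg disc (SD, n = 3 each). The 2 dye orientations gave means of -2.01 and -1.73 on 5 and 4 arrays.

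In TD over V(wg) cells rho was at -2.11, -0.55, -1.35, -0.97 and -1.51. All 5 arrays were below 0, the second least so, and the fitted ratio was -1.31 ± 0.27 (SE, 95% interval -1.86 to -0.76, fold 0.403; limma adjusted p = 0.0015). In D(wg) over V(wg) cells it was at 0.56, -2.34 and -1.91. The array above 0 was the only one of its dye orientation, and the fitted ratio of -1.21 ± 0.35 did not pass (limma adjusted p = 0.0999), whereas without that array it was -2.20 (limma adjusted p = 0.000806). In TD over D(wg) cells rho was at -0.39, -0.66 and -0.04, all below 0 but close to it (fitted -0.38 ± 0.35, limma adjusted p = 0.482). In wild-type discs the dorsal over ventral ratio was -0.20, -0.49 and -1.03 (fitted -0.59 ± 0.35, limma adjusted p = 1). The dorsal over ventral ratios of Wg-expressing and wild-type discs overlapped, and their difference was -0.62 ± 0.50 (limma adjusted p = 0.645).

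In Wg-expressing leg discs over the reference rho ran from -1.38 to 0.32 with a median of -0.89, and 5 of 6 arrays were at -0.64 or lower. The fitted ratio was -0.76 ± 0.25 (SE, n = 6; limma adjusted p = 0.0267). It no longer passed without replicate 1, 2 or 5, or when the spread of the arrays was scaled to be equal. Wild-type leg discs over the reference gave -0.16, 0.58, -0.32 and -0.13, which lie around 0 (fitted 0.02 ± 0.31). The Wg-expressing arrays overlapped these, and the difference of -0.78 ± 0.39 did not pass (95% interval -1.58 to 0.02; limma adjusted p = 0.238). Regenerating discs had 2 values, -0.22 and -0.71, and were not tested.

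Markers of sense organ precursors, cells in which rho is known to be expressed in discs, moved with rho in some comparisons and not in others. In wing over leg discs 3 of 6 tested precursor genes were lower, where 4.53% of all probes passed. They were the proneural genes sc (-1.16 ± 0.18) and ac (-0.61 ± 0.14) and the determinant phyl (-1.20 ± 0.22), and the median of the 6 was -0.30. In Wg-expressing discs over the reference 5 of 8 were lower, where 21.1% of all probes passed. There sc was at -1.36 ± 0.22, sca was higher at 0.58 ± 0.10, and the median of the 8 was -0.60. In TD over V(wg) cells 0 of 5 passed by limma's adjusted p, against 13.4% of all probes, with values from -0.72 to 0.07. In wild-type leg discs over the reference 1 of 6 was lower, against 17.8%, with rho at 0.02. In regenerating discs 1 of 2 was lower, against 40.6%, and rho was not tested. Without the arrays labelled TD over D(wt) rho correlated at 0.28 with sc, 0.38 with ac and 0.42 with phyl. The part of these cells in the rho values was not tested.

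S encodes the chaperone that carries Spi to where Rhomboid cleaves it, and it passed no test. Its fitted ratio lay between -0.29 and 0.50 in the comparisons that tested it on the same array, other than TD over D(wt). It was at 0.22, 1.20, 0.49 and 0.14 in wild-type leg discs over the reference, all above 0 (fitted 0.50 ± 0.26, limma adjusted p = 0.168). In Wg-expressing discs it ran from -0.46 to 1.35, with 4 arrays below 0 and 2 above 1. On the wing over leg arrays it ran from -0.83 to 0.31 (fitted -0.27 ± 0.17, limma adjusted p = 0.648).

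spi encodes an EGFR ligand made as a membrane-bound precursor. In TD over V(wg) cells it was at 1.94, -0.27, 0.66, 0.62 and 0.71. Replicate 1 stood highest and replicate 2 alone was below 0. The fitted ratio was 0.74 ± 0.21 (SE, 95% interval 0.31 to 1.17; limma adjusted p = 0.0182), but without replicate 1 it was 0.41 (limma adjusted p = 0.297), and it did not pass in a fit to the comparison's own arrays. Against D(wg) cells it was at 0.17, 1.19 and 0.68, all above 0, with a fitted 0.69 ± 0.27 that did not pass (limma adjusted p = 0.0748) but did without replicate 1 (0.94, limma adjusted p = 0.0491).

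In regenerating discs over the reference spi was at -0.03, -1.11, -1.38 and -0.51, with a fitted -0.76 ± 0.24 (limma adjusted p = 0.0109). The call was lost without replicate 2 or 3, with scaled array spread and in a fit to these arrays alone, and it held without replicate 4 (-0.84, limma adjusted p = 0.0184). The median of all genes tested there was -0.08. Wild-type leg discs over the reference gave -0.40, -0.52, -0.73 and 0.08, within the range of the regenerating discs on all but 1 array, and the difference of -0.36 ± 0.34 did not pass (limma adjusted p = 0.477). In Wg-expressing discs spi ran from -0.61 to 0.03, and in wing over leg discs from -0.35 to 0.69 around a fitted ratio of 0.04 ± 0.16.

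vn encodes the neuregulin-like ligand that needs no cleavage by Rhomboid, and it is known for its role in the notum of the wing disc. It had values on 25 of the 39 arrays and small ratios on all of them, from -0.51 to 0.39. Wild-type leg discs over the reference gave -0.51, -0.13 and -0.44, all below 0, with a fitted -0.38 ± 0.12 (limma adjusted p = 0.0329). The same value without replicate 4 did not pass (limma adjusted p = 0.0939), nor did those without replicate 1 (-0.29, limma adjusted p = 0.227) or 2 (-0.48, limma adjusted p = 0.0621). The call was also lost with no dye term, in a fit to these arrays alone and on slides of 1 series. In Wg-expressing discs vn was at -0.32, -0.33, -0.25, -0.11 and 0.12, which overlaps the wild-type values (difference 0.21 ± 0.15, limma adjusted p = 0.413). Only 3 wing over leg arrays measured it, at -0.03, -0.01 and 0.07, too few for a test.

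Egfr encodes the receptor itself. In Wg-expressing leg discs over the reference it ran from -1.58 to -0.22 with a median of -1.15, below 0 on all 6 arrays, and the fitted ratio was -0.97 ± 0.34 (SE, 95% interval -1.68 to -0.27; limma adjusted p = 0.0427). In wild-type leg discs over the reference it was at -1.86, -2.31, -0.68 and -0.98, again all below 0 (fitted -1.42 ± 0.43, 95% interval -2.30 to -0.55; limma adjusted p = 0.0244). Regenerating discs had 2 values, -2.03 and -3.09, too few of 4 arrays for a test. Leaving out replicate 4, which had no Egfr value, kept the same 2 values and only let them enter the test, as 2 of 3 arrays. They then gave a fitted -2.56 (limma adjusted p = 0.0017), which is no check on these values.

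These Egfr ratios share the reference. The Wg-expressing and wild-type arrays overlapped, and their difference was 0.45 ± 0.55 (95% interval -0.68 to 1.57; limma adjusted p = 0.673). The call in Wg-expressing discs was lost without replicate 1, 2, 3 or 5, and that in wild-type discs without replicate 1 or 2, while without the array high for w it held (-1.58, limma adjusted p = 0.0353). On the wing over leg arrays Egfr ran from -0.49 to 3.31 with a median of 0.17, and the array at 3.31 lay far above the next at 0.97 (fitted 0.45 ± 0.30, limma adjusted p = 0.694). Egfr in TD over D(wg) cells was at 0.21, 0.18 and 1.36, in TD over V(wg) cells at -0.93, -0.64, 0.85 and -0.34, and in D(wg) over V(wg) cells at -1.32 and -0.65. None of these passed (limma adjusted p = 0.454, 0.702 and 0.333).

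Ras85D encodes the Ras GTPase that links the receptor to the MAP kinase cascade, and it also acts downstream of other receptor kinases. In regenerating discs over the reference it was at -1.43, -0.23, -1.30 and -0.47, below 0 on all 4 arrays, 2 of them below -1. The fitted ratio was -0.86 ± 0.21 (SE, 95% interval -1.29 to -0.43; limma adjusted p = 0.00179), and it was -1.0 without replicate 4 (limma adjusted p = 0.00227). The call was lost with scaled array spread and in a fit to these arrays alone.

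Wild-type leg discs over the reference gave Ras85D ratios of 0.13, -0.28, 0.20 and 0.46, and the regenerating arrays reached into this range with 1 array, at -0.23. The difference, regenerating minus wild-type, was -1.0 ± 0.30 (95% interval -1.61 to -0.38; limma adjusted p = 0.0191), where the median of all genes tested was -0.20. It was -1.15 without regenerating replicate 4 (limma adjusted p = 0.0161) and -0.88 without wild-type replicate 4 (limma adjusted p = 0.0609). The call was also lost without regenerating replicate 1 or 3, with scaled array spread, in a fit to these arrays alone and on slides of 1 series. Wg-expressing discs over the reference ran from -0.78 to 0.27, and Wg-expressing minus regenerating discs differed by 0.75 ± 0.27 (limma adjusted p = 0.0403), where the median of all genes tested was 0.14. That call was lost without Wg-expressing replicate 1, 2, 3, 5 or 6, without regenerating replicate 1 (0.54, limma adjusted p = 0.164) or 3 (0.60, limma adjusted p = 0.163), with scaled array spread (0.45, limma adjusted p = 0.301) and in a fit to these arrays alone. Without regenerating replicate 4 the difference was 0.89 (limma adjusted p = 0.0287). Second-segment leg discs, their culture and the host cannot be told apart from regeneration in these values. In Wg-expressing minus regenerating discs, Wg, heat shock and slide series cannot be told apart from it either.

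Ras85D showed a split by dye in wing over leg discs. The arrays with the wing sample as the first probe averaged -0.30 ± 0.16 (SD, n = 5) and the others 0.20 ± 0.26 (SD, n = 4), and these ranges did not overlap. In Wg-expressing discs over the reference the split ran the other way. There the means were 0.16 ± 0.10 with the Wg-expressing sample as the first probe and -0.38 ± 0.34 otherwise (SD, n = 3 each), again without overlap. With the dye orientation in the model the wing over leg ratio was -0.08 ± 0.14 (limma adjusted p = 0.942). That dye term is shared by all comparisons and cannot take up opposite splits. How many of all probes show such splits was not counted. The Ras85D ratio in TD over D(wg) cells was -0.26, -1.37 and 0.03 (fitted -0.54 ± 0.24, limma adjusted p = 0.119), so that 1 array stood apart.

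pnt encodes the ETS transcription factor through which the MAP kinase acts on target genes. It was below 0 in wing over leg discs on all 7 arrays that measured it, from -1.61 to -0.14 with a median of -0.53. The fitted ratio of -0.80 ± 0.23 passed narrowly (SE, 95% interval -1.28 to -0.32; limma adjusted p = 0.0475). That call was lost without replicate 2, 3, 4, 5 or 9, without re-centring of the arrays and on slides of 1 series. It was also lost without replicate 1 or 6, which had no pnt value, so that only the other probes in the test changed. By leg segment the means were -1.05 for the first (n = 2), -1.0 for the second (n = 3) and -0.33 for the third leg disc (n = 2).

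In Wg-expressing leg discs over the reference pnt ran from -0.60 to 0.49 around a median of 0.08. In wild-type leg discs it was at -0.73, -2.14, -1.57 and 0.11, so that 3 arrays were well below 0 and replicate 4 was not. That array was the only one of its dye orientation and is the one high for w. The fitted wild-type ratio was -1.10 ± 0.31 (limma adjusted p = 0.0179), and without replicate 4 it was -1.62 (limma adjusted p = 0.00198). Without replicate 1, 2 or 3 the call was lost. The difference, Wg-expressing minus wild-type, was 1.14 ± 0.39 (95% interval 0.33 to 1.95) and did not pass (limma adjusted p = 0.0804), whereas without wild-type replicate 4 it was 1.66 (limma adjusted p = 0.00998).

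Larval fat body and muscle genes stood beside the wild-type values. In wild-type leg discs over the reference all 4 tested fat body genes were lower, from -4.01 to -0.95, and 3 of 5 muscle genes, against 17.8% of all probes. Without replicate 4, where 1648 of 8580 probes passed, all 4 fat body genes remained lower, from -4.18 to -0.81. Of 4 muscle genes 1 was then lower, Act57B (-2.45). In Wg-expressing discs 0 of 4 fat body genes passed by limma's adjusted p, with values from -0.14 to 0.30. There 1 of 4 muscle genes was lower, against 21.1% of all probes. The part of these tissues in the vn, Egfr and pnt values was not tested.

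aos encodes the secreted inhibitor that sequesters Spi and is itself a target of high EGFR signalling. In Wg-expressing leg discs over the reference its best-measured probe, a, ran from -0.07 to 1.19 with a median of 0.83, at 0.59 or higher on 5 of 6 arrays. The fitted ratio was 0.74 ± 0.20 (SE, 95% interval 0.33 to 1.16, fold 1.68; limma adjusted p = 0.00855), and it passed under every alternative and without any 1 array. Probe b gave 1.20, 0.58, -0.24, 1.14, 1.01 and 0.73 (fitted 0.74, limma adjusted p = 0.024), and probe c gave 1.16, 0.50, -0.28, 1.04, 0.99 and 0.64 (fitted 0.68, limma adjusted p = 0.0633). All 3 probes put the same array, replicate 3, below 0.

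Wild-type leg discs over the reference gave aos ratios of 0.04, 0.21, 0.26 and -0.09 by probe a. Of the 6 Wg-expressing arrays 5 lay above all of these, but replicate 3 reached into their range, and the difference of 0.66 ± 0.32 did not pass (limma adjusted p = 0.223). Regenerating discs gave 0.11, 0.05, 0.71 and -0.42, and wing over leg discs ran from -0.65 to 1.07, both around 0. On regenerating replicate 3 the probes disagreed, with probe c at -2.02 where probe a was at 0.71.

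Within discs the aos values were less even. In TD over D(wg) cells probe a was at -0.24, -1.66 and -0.49, all below 0, with a fitted -0.78 ± 0.29 that fell short (limma adjusted p = 0.0545). It passed with the values as deposited (-0.83, limma adjusted p = 0.039), with values required on every array (limma adjusted p = 0.0477) and without replicate 1 (-1.07, limma adjusted p = 0.0337). Without replicate 2 it was -0.36 (limma adjusted p = 0.544). Probes b (-0.05, -1.19 and -0.08) and c (-0.01, -0.96 and 0.00) put only replicate 2 clearly below 0. In D(wg) over V(wg) cells probe a was at 0.16, 0.49 and 1.12, above 0 on all arrays, and in D(wt) over V(wt) cells at -0.54, -0.41 and -0.20, below 0 on all. Probes b and c gave both signs in D(wg) over V(wg) cells, at -0.19, -0.56 and 0.72 for b and -0.26, -0.43 and 0.57 for c. The difference of the dorsal over ventral ratios was 0.96 ± 0.41 by probe a (limma adjusted p = 0.486), 0.29 by probe b and 0.51 by probe c.

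**Figure D3:**
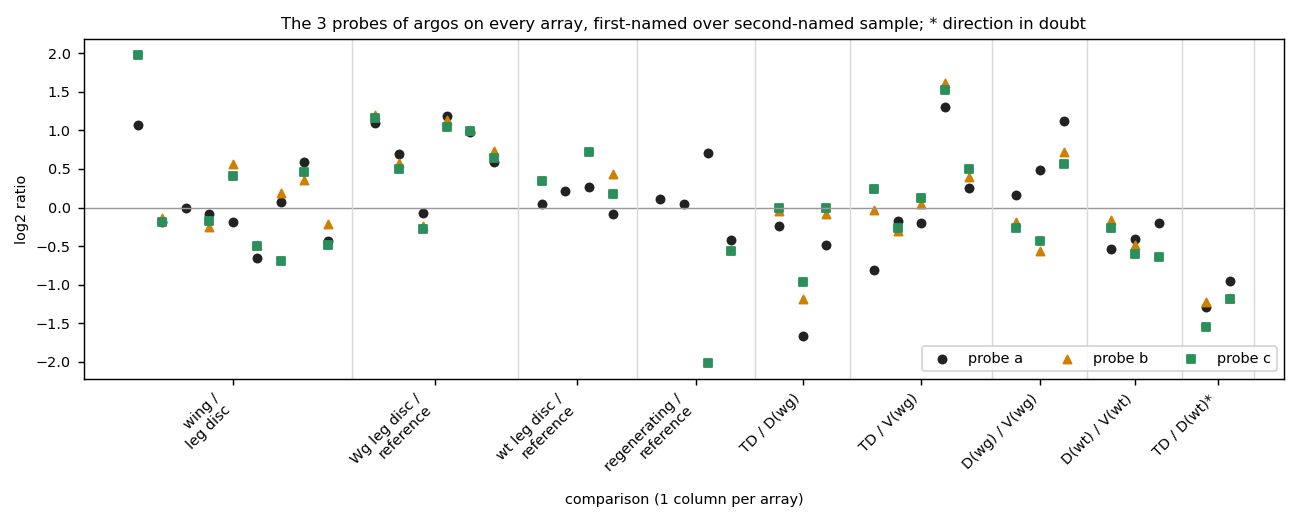
Log2 ratio (first-named over second-named sample) of the 3 aos probes on every array, 1 column per array, arrays grouped by comparison (circles probe a, triangles probe b, squares probe c). The probes lie close together on the Wg-expressing disc arrays, where 5 of 6 arrays are above 0 by each probe, and apart on several others.

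Over the arrays that both measured, probes a and b of aos correlated at 0.87 (29 arrays), a and c at 0.67 (35) and b and c at 0.96 (29). These are descriptions over arrays that share samples, dyes and batches. sty encodes the intracellular inhibitor of Ras signalling, and it passed no test. Its probes a and c, measured on 32 arrays each, correlated at 0.84, while probe b had 2 values. In Wg-expressing discs over the reference probe a gave 0.12, 0.33, 0.05, 0.24 and 0.60, all above 0 but small (fitted 0.27 ± 0.11, limma adjusted p = 0.0902), and probe c a fitted 0.28 ± 0.10 (limma adjusted p = 0.0524). In all other comparisons but that of TD over D(wt) cells the chosen sty probe had a fitted ratio between -0.18 and 0.24.

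kek1 encodes the transmembrane inhibitor that binds Egfr and is a known target of the pathway. It had values on 12 arrays only and was tested in 2 comparisons. In Wg-expressing discs over the reference it was at 0.06, 0.40, -0.07, 0.06 and -0.09, around 0 (fitted 0.06 ± 0.17, limma adjusted p = 0.844). In D(wg) over V(wg) cells its 2 values, 0.77 and -0.47, had opposite signs. In TD over V(wg) cells 3 arrays gave -0.48, -0.30 and -0.06, which were not tested.

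**Figure D4:**
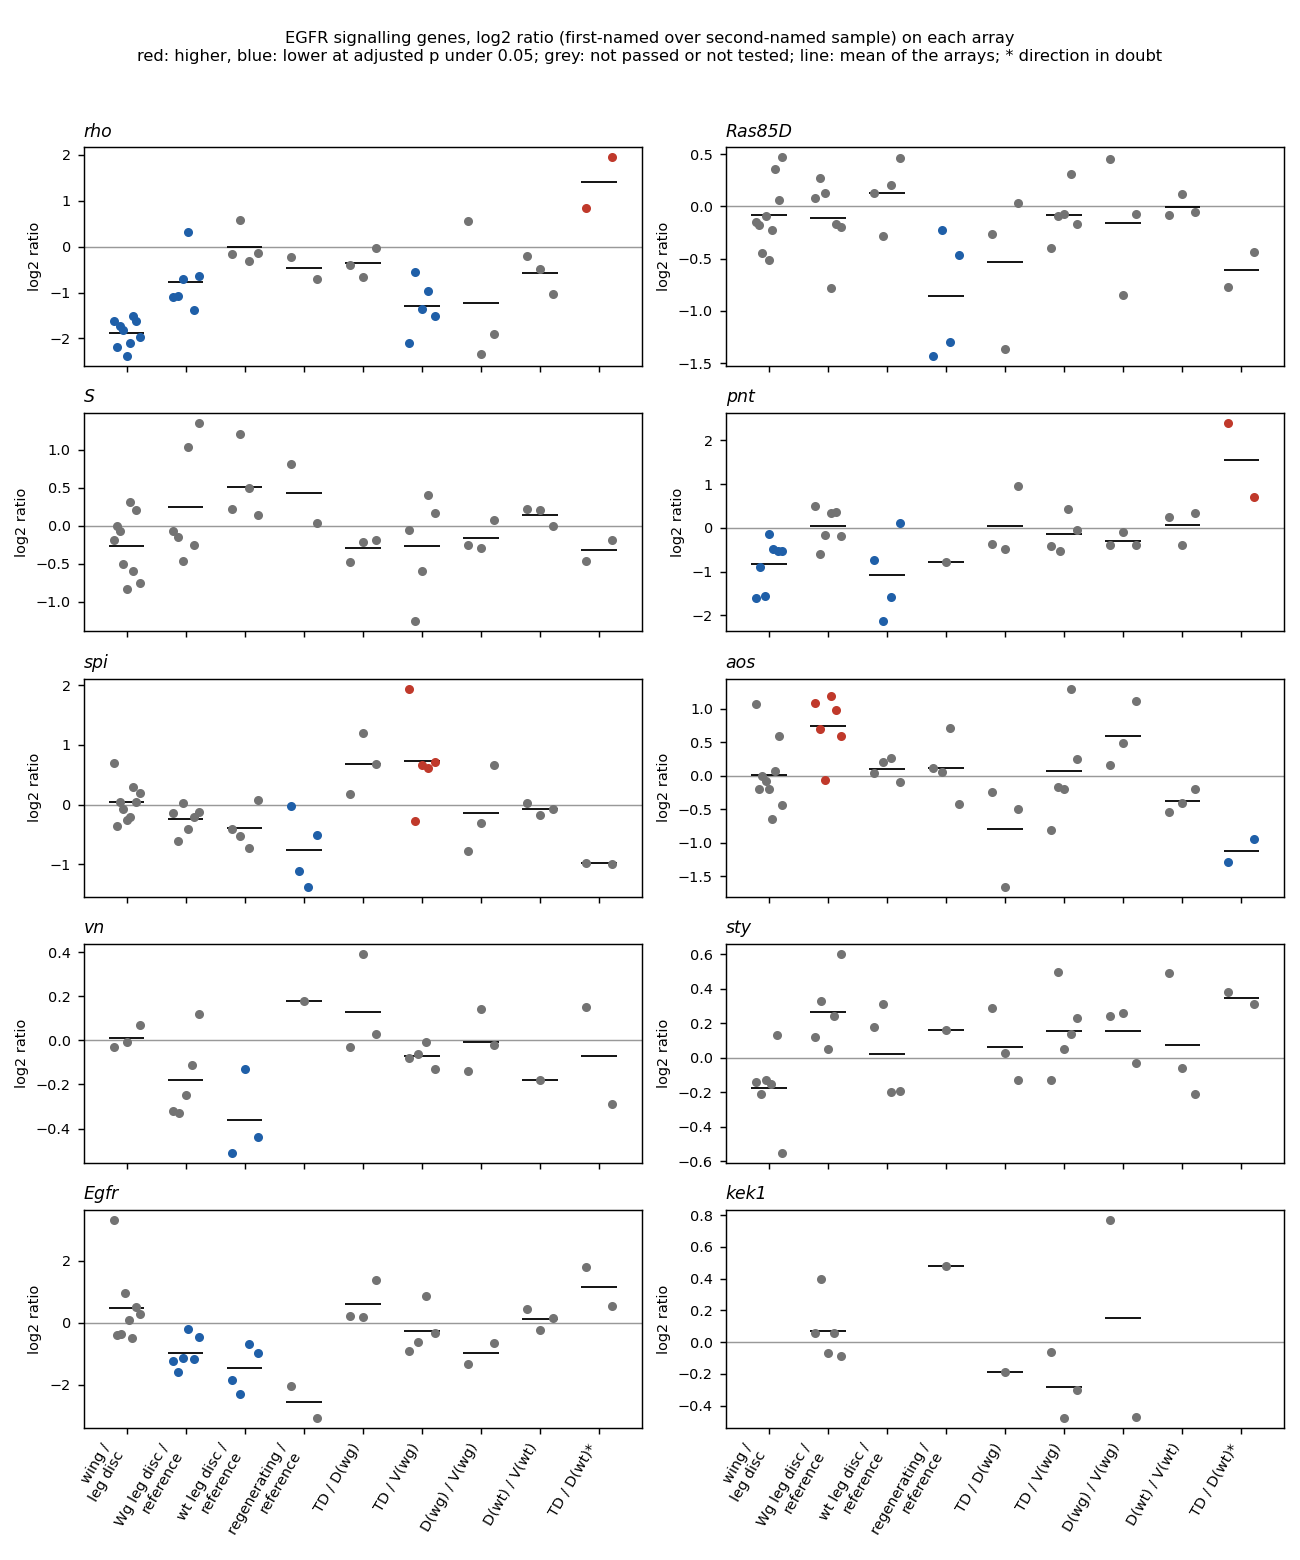
Log2 ratio (first-named over second-named sample) of the chosen probe of each of the 10 genes on every array with a value, grouped by comparison, with a line at the mean of the arrays, red where the gene was higher and blue where it was lower at an adjusted p under 0.05, and grey elsewhere. The axes differ between genes. All 9 wing over leg arrays of rho lie at -1.52 or lower, and the regenerating arrays of Ras85D lie below 0.

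On the arrays labelled TD over D(wt) rho was at 0.85 and 1.95, aos at -1.29 and -0.95 and pnt at 2.40 and 0.71. The fitted ratios as labelled were 1.45 ± 0.44 for rho, -1.15 ± 0.36 for aos and 1.52 ± 0.44 for pnt (limma adjusted p = 0.0356, 0.0405 and 0.0321). With the sign turned they were -1.34, 1.09 and -1.59 (limma adjusted p = 0.0561, 0.0567 and 0.027). spi was at -0.98 and -0.99 and Egfr at 1.78 and 0.54 as labelled, and neither passed. As labelled, the calls of rho (limma adjusted p = 0.124 and 0.486) and aos (limma adjusted p = 0.47 and 0.168) were lost without either array, and that of pnt without replicate 1. GFP, vg and wg go against the label on these arrays, so no direction is drawn, and only pnt passed with either sign.

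A further 27 genes of the pathway were listed, of which 25 are on the array. In wing over leg discs 1 of 15 tested was lower, where 4.53% of all probes passed. It was edl, which encodes a small protein that binds and regulates the factors Pnt and Aop, at -1.07 ± 0.14 (limma adjusted p = 8.12e-07). It was below 0 on all 9 arrays, from -1.39 to -0.07. In Wg-expressing discs over the reference 5 of 23 passed, a share near the 21.1% of all probes. The Ras GTPase-activating gene vap was higher (0.67 ± 0.17). edl (-0.88 ± 0.17), the MAP kinase kinase gene Dsor1 (-0.84 ± 0.11), the rhomboid-family gene ru (-0.47 ± 0.11) and the scaffold gene ksr (-0.49 ± 0.16) were lower.

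In wild-type leg discs over the reference 2 of 15 of these genes passed, against 17.8% of all probes, both lower, Dsor1 (-0.86 ± 0.17) and the repressor gene cic (-0.42 ± 0.11). Without replicate 4 Dsor1 was at -0.86 and passed, cic did not (-0.36, limma adjusted p = 0.0668), and Sos (-0.83) and rho-4 (-0.65) were lower. Of the difference between Wg-expressing and wild-type leg discs, 2 of 15 passed, against 6.63% of all probes. edl differed by -1.08 ± 0.26 (limma adjusted p = 0.0123), and the exchange factor gene Sos by 0.78 ± 0.24 (limma adjusted p = 0.0457), and without wild-type replicate 4 these were -0.96 (limma adjusted p = 0.0408) and 1.09 (limma adjusted p = 0.00456). The Wg-expressing arrays ran from -1.35 to -0.52 for edl and lay below all wild-type arrays, at 0.07, 0.36, -0.43 and 0.58. In regenerating discs over the reference 2 of 9 passed, against 40.6% of all probes, both lower, the rhomboid-family gene rho-4 (-0.85 ± 0.20) and edl (-0.63 ± 0.20). Without replicate 4 these were at -1.06 and -0.81 and passed. So did Raf (-1.14) and rl (1.56), which were not tested with all 4 arrays and entered the test only because that array was left out.

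In TD over V(wg) cells 3 of 19 passed, against 13.4% of all probes, all lower: edl (-0.91 ± 0.18, limma adjusted p = 0.000988), vap (-0.74 ± 0.18) and the repressor gene ttk (-0.64 ± 0.21). edl was at -0.94, -1.62, -0.30, -0.63 and -0.96, below 0 on every array. In TD over D(wg) cells the same 3 genes were lower among 21 tested, ttk at -1.30 ± 0.27, vap at -1.05 ± 0.24 and edl at -0.67 ± 0.23, and Dsor1 was higher at 0.48 ± 0.16, where 17.9% of all probes passed. These comparisons may share TD samples, which the labels do not settle. In D(wg) over V(wg) cells 0 of 20 passed by limma's adjusted p, against 0.266% of all probes. Unadjusted, 10 of the 20 and 1909 of all 9398 probes had a p under 0.05. In D(wt) over V(wt) cells 0 of 16 passed, against 0.694% of all probes. Unadjusted, 0 of the 16 and 219 of all 7207 probes had a p under 0.05. The list's median ratio lay between -0.31 and 0.14 over the comparisons on the same array other than TD over D(wt), where the median of all genes tested lay between -0.08 and 0.05.

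Markers of other cells stood beside the TD values as follows. In TD over V(wg) cells 1 of 4 myoblast genes was lower, zfh1 (-0.58 ± 0.13), and 1 of 3 tracheal genes was higher, Gasp (1.02). There 13.4% of all probes passed. Against D(wg) cells, where 17.9% of all probes passed, 1 of 2 neuronal genes was lower, elav (-1.47). Also lower were 1 of 4 myoblast genes, zfh1 (-0.56 ± 0.15), and 1 of 6 sense organ precursor genes, phyl (-0.95 ± 0.28). Of 3 tracheal genes 1 was higher, vvl (0.62 ± 0.20). Haemocyte genes were tested in Wg-expressing discs over the reference, where 0 of 2 passed by limma's adjusted p, against 21.1% of all probes. In the same comparison 3 of 5 myoblast genes were lower, with Him at -1.40 ± 0.15. In regenerating discs over the reference 1 of 3 was higher, Mef2 (1.68), against 40.6% of all probes. The only muscle gene tested in regenerating discs, Mlc2, was lower than in the reference (-1.99 ± 0.37), and in Wg-expressing minus regenerating discs it was higher (1.67 ± 0.50). Without regenerating replicate 4 Mef2 was at 2.0 and Mlc2 at -1.78, and both passed. Their part in the members' values was not tested.

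The genes whose ratios followed a member's most closely over arrays were sought for rho and pnt, the members that passed in at least 3 of the comparisons on the same array, among named genes sharing at least 30 arrays. For rho they were odd, which encodes a zinc-finger factor expressed at leg joints (Pearson's r = 0.77 over 37 arrays), Poxm, a Pax-family factor (0.68 over 34), and edl (0.68 over 37). By Spearman's correlation they were odd (0.75), TfAP-2 (0.69) and wrapper (0.68). Without the 2 arrays labelled TD over D(wt) they were odd (0.73), Xbp1 (0.69) and sob (0.69), and the correlation with edl was 0.52 over 35 arrays. These correlations pool all comparisons, which share samples and the reference, and they carry no test.

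**Figure D5:**
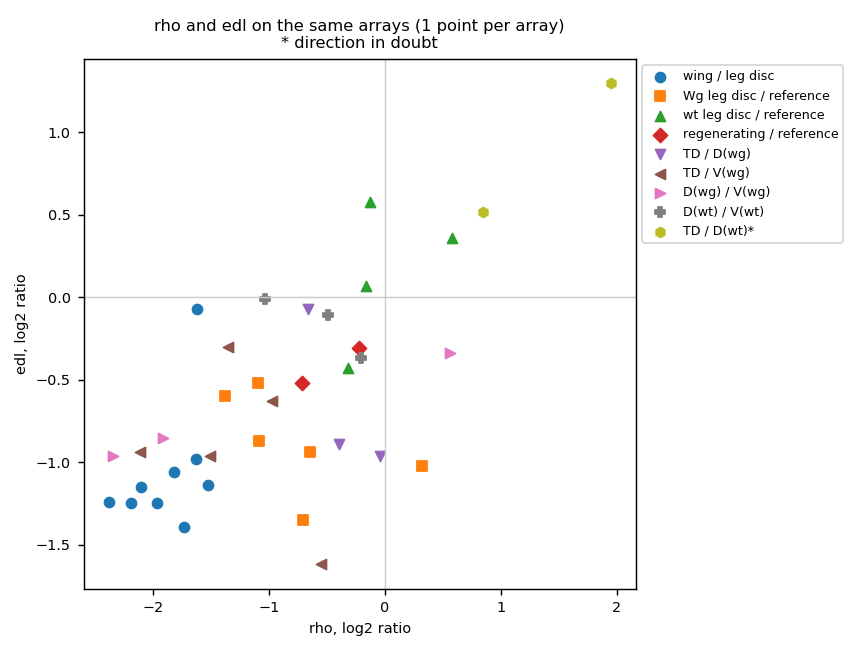
Log2 ratio (first-named over second-named sample) of edl (vertical axis) against that of rho (horizontal axis) on the 37 arrays that measured both, 1 point per array, marked by comparison. The wing over leg arrays, in the lower left, have both genes below 0, the wild-type leg disc arrays lie within 0.58 of 0 for both, and the 2 arrays labelled TD over D(wt), of doubtful direction, lie at the upper right.

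For pnt the closest genes were Gfrl (r = 0.75 over 33 arrays), Usp5 (0.73 over 33) and EndoU (0.69 over 32). Without the 2 arrays labelled TD over D(wt) none of these stayed among the closest 3, which were then beta-Man (0.84 over 31), Ns4 (0.70) and Sec6 (0.69). The closest genes to pnt thus changed with those 2 arrays. Among the members, rho and spi had a correlation of -0.45 over 37 arrays and of -0.31 without the 2 arrays.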

How the data were processed

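Arrays were grouped by the comparison that their labels name, 39 in 9 groups. Per the labels, a deposited value is a log2 ratio with the second-named sample over the first, whatever the dye. The log base is not stated and was taken from the values, which reach 17.08 in size. Filtering and normalisation are not given in the sources used here. Ratios were turned to first-named over second-named and each array was centred on its median (deposited medians -0.1143 to 0.2134). Of 16505 probes 146 were control spots, and 15368 were named through a RefSeq gene table, 12612 through locus tags in present use, 2720 through former tags and 36 through symbols. Several genes matched 486 probes, and no gene matched 505. Between 18.15 and 89.54 percent of the probes had a value on an array, and since intensities were not used, the number of arrays is what limits the precision.

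Each probe was fitted by least squares over all 39 arrays, with a mean per comparison (wing against leg by segment) and a term for the dye orientation. Variances were moderated with squeezeVar of limma 3.58.1 (prior df 3.567, prior SD 0.2793) in R 4.3.3. SE is that of the model, from the spread of a probe over all arrays. Tests are two-sided, on probes with values on at least 66.7 percent and at least 2 arrays of each group. The method was tested on simulated data. Tables and figures came from Python 3.11.15 (scipy 1.17.1, numpy 2.4.6, pandas 2.3.3, matplotlib 3.10.9).

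The members, lists and tests were chosen with earlier results of these data known. All members are named. A gene's probe with the most values stands for it, and the others are given beside it. Of the 2 lists of related genes, counts are given and genes that passed are named, at most 6 a comparison by the smallest p. Markers of other cells and of disc identity were listed too. Alternatives were the values as deposited, array spreads scaled to be equal, no dye term, a fit to a comparison's own arrays with no dye term, values on every array, slides of 1 series, probes of a gene averaged and each array left out.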

Additional observations from a re-analysis of the deposited data

Results flagged for a closer look

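Egfr stood at 3.31 on replicate 1 of wing over leg discs, far from the other 7 arrays with a value, which ran from -0.49 to 0.97. Probe c of aos stood at 1.98 on the same array, with its 7 other values between -0.69 and 0.46. Of 48 sets of member values checked these 2 held a value so far out, where chance gives about 1 in 20. That array had the widest spread of its group (0.634), and its lowest correlation with another array of the group was -0.078.

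Ras85D differed between regenerating and wild-type leg discs over the reference by -1.0 ± 0.30 (SE; limma adjusted p = 0.0191), and between Wg-expressing and regenerating discs by 0.75 ± 0.27 (limma adjusted p = 0.0403). The first call was lost without any 1 of 3 of the 8 arrays, among them wild-type replicate 4 (-0.88, limma adjusted p = 0.0609). The second was lost without any 1 of 7 of the 10. Among these were regenerating replicate 1 (0.54, limma adjusted p = 0.164) and 3 (0.60, limma adjusted p = 0.163). Both were also lost with scaled array spread and in fits to their own arrays. The groups overlapped in both cases, and both differences contain the same 4 regenerating arrays. The second leg segment, the culture and the host cannot be told apart from regeneration, nor can Wg, heat shock and slide series in the second difference.

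The dorsal over ventral ratio of aos was above 0 on all 3 arrays of Wg-expressing discs and below 0 on all 3 of wild-type discs by probe a. The difference of 0.96 ± 0.41 did not pass (limma adjusted p = 0.486), and probes b and c had both signs in Wg-expressing discs. aos was flagged for these opposite signs, and how many of all probes show them was not counted.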

How the results depend on the processing

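Of 98 member values tested 17 passed, and 3 of them passed under every alternative and without any 1 array: rho in wing over leg discs, rho in TD over V(wg) cells and aos in Wg-expressing discs over the reference. Over 1184 alternative values of members, 60 calls were lost, 13 were gained and 3 reversed. The 3 reversals are those of the TD over D(wt) arrays with the sign turned, an alternative chosen after seeing the data, with rho at -1.34, aos at 1.09 and pnt at -1.59, and the members that passed went to 1. The count of members that passed moved by more than 1.5 times in the following cases only, apart from arrays left out. With the values as deposited, or with values required on every array, it was 1 for wing over leg discs and 1 for TD over D(wg) cells. On slides of 1 series it was 1 for wing over leg discs, 1 for Wg-expressing minus wild-type and 0 for regenerating minus wild-type leg discs. With array spreads scaled it was 0 for regenerating discs over the reference, 0 for regenerating minus wild-type and 0 for Wg-expressing minus regenerating discs. In fits to a comparison's own arrays it was 0 for the same 3, 1 for wild-type leg discs over the reference, 1 for TD over V(wg), 1 for D(wt) over V(wt) and 6 for the arrays labelled TD over D(wt). With probes averaged it was 2 for Wg-expressing minus regenerating discs. Causes were not tested.

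Leaving out 1 array gave 1 to 2 members for wing over leg discs, 0 to 2 for wild-type leg discs, 1 to 3 for Wg-expressing discs and 1 to 3 for regenerating discs over the reference. It gave 0 to 2 for TD over D(wg), 1 to 2 for TD over V(wg), 0 to 1 for D(wg) over V(wg), 0 to 1 for TD over D(wt) and 0 to 0 for D(wt) over V(wt). For the differences it gave 0 to 1 for each of the 3 that go through the reference and 0 to 0 for the dorsal over ventral ratios.

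Over all probes, counts moved by more than 1.5 times as follows. With array spreads scaled, 301 probes of wing over leg discs became 619, 1410 of wild-type leg discs 851, 25 of D(wg) over V(wg) 9, 50 of D(wt) over V(wt) 165, 1578 of regenerating discs 520, 517 of Wg-expressing minus wild-type 259, 755 of regenerating minus wild-type 116, 1042 of Wg-expressing minus regenerating 331, and 8 of the dorsal over ventral difference 54. In fits to own arrays these were 394 for wild-type leg discs, 385 for TD over V(wg), against 1171, 5 for D(wg) over V(wg), 1518 for TD over D(wt), against 729, 223 for D(wt) over V(wt), 426 for regenerating discs, 269, 177 and 656 for the differences through the reference, and 15 for the dorsal over ventral difference. D(wg) over V(wg) gave 11 with no dye term, 9 on 1 slide series and 13 with probes averaged, wing over leg discs 179 with values on every array, and the dorsal over ventral difference 13 on 1 series and 5 with probes averaged. As deposited, higher and lower probes of TD over D(wg) were 755 and 881, against 956 and 688, and of TD over D(wt) 435 and 311, against 315 and 414. With spreads scaled those of the dorsal over ventral difference were 21 and 33, against 5 and 3. Without 1 array the counts of all probes moved by more than 1.5 times as follows. Wild-type leg discs gave 336 and 334 without replicate 1 and 2, Wg-expressing discs 1626 without 1, against 2588, TD over D(wg) 473 and 603 without 2 and 3, against 1644, TD over V(wg) 577 without 1, and TD over D(wt) 82 and 195 without 1 and 2. D(wg) over V(wg) gave 11 and 322 without 2 and 3, and D(wt) over V(wt) 19 and 20 without 2 and 3. Wg-expressing minus wild-type gave 232 and 263 without wild-type replicate 1 and 2, regenerating minus wild-type 491 and 492 without wild-type replicate 1 and regenerating replicate 3, and the dorsal over ventral difference 4 and 5 without replicate 1 and 2 of D(wt) over V(wt). The values of listed genes without the arrays high for w were chosen after seeing the data.

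No paired analysis was possible because the labels give no replicate numbers, and each array already sets both samples of a comparison against each other. kek1 and vn were measured on 12 and 25 arrays, and without intensities it is not known how far any member lay above background.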

Other observations

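Counts were also made for 13 listed genes that EGFR signalling is known to regulate in the distal leg and in the notum or wing. In Wg-expressing discs over the reference 4 of 12 tested passed, where 21.1% of all probes did. al, a homeobox gene of the leg tip that needs EGFR signalling, was lower (-1.67 ± 0.25, limma adjusted p = 1.83e-05), as were the Iroquois genes caup (-0.39 ± 0.10) and ara (-0.43 ± 0.12), and the Bar gene B-H2 was higher (0.37 ± 0.12). In wild-type leg discs over the reference 3 of 11 passed, against 17.8% of all probes, with B-H2 (0.47 ± 0.15) and bs (0.64 ± 0.20) higher and ara (-0.65 ± 0.17) lower. In wing over leg discs 3 of 10 passed, against 4.53%, the dorsal selector ap (3.49 ± 0.21) and ara (0.65 ± 0.10) higher and the distal leg gene Lim1 (-3.86 ± 0.36) lower.

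Within discs, TD over D(wg) cells had vvl higher (0.62 ± 0.20) and B-H2 (-0.63 ± 0.17), bs (-0.80 ± 0.23) and caup (-0.46 ± 0.15) lower among 12 tested, where 17.9% of all probes passed. TD over V(wg) cells had caup lower (-0.38 ± 0.11) among 11, against 13.4% of all probes. In D(wt) over V(wt) cells al was higher (1.71 ± 0.36) and ap lower (-1.88 ± 0.37) among 10, against 0.694% of all probes, and in regenerating discs over the reference rn (-0.49 ± 0.11) and al (-0.81 ± 0.31) were lower among 6, against 40.6%.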
